A study of Mus musculus with 39 samples.

Results

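The genes described here are 32 genes that are commonly used to recognise microglia and macrophages, read in RNA sequencing libraries of sorted mouse astrocytes. They were chosen by name, and each was found by matching its Ensembl identifier without version to the GENCODE M21 annotation, which gave 32 of 32 genes among the 55401 genes of the deposited counts. The study sorted cells from male mice that had gone through chronic social defeat stress, a procedure of repeated attacks by an aggressive mouse after which animals are sorted by social behaviour into susceptible and resilient ones, and from control mice. Its title asks about CREB, a transcription factor, in astrocytes of the nucleus accumbens (NAc). From NAc there were 7 libraries of control, 8 of susceptible and 7 of resilient mice, and from tissue labelled PFC, read here as prefrontal cortex, there were 6, 6 and 5 libraries of the same conditions. The labels give no strain, age or time, the protocol text names NAc tissue for every library, and each library carries its own mouse number. Cells were captured with ACSA-2 beads, whose antibody binds the sodium pump subunit Atp1b2 on astrocytes, and 500 pg of total RNA per library went into a kit that does not select polyadenylated RNA.

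Microglia are the resident macrophages of the brain. They depend on the receptor Csf1r, sense fractalkine through Cx3cr1 and nucleotides through P2ry12 and P2ry13, and make the complement protein C1q, whose chains are encoded by C1qa, C1qb and C1qc and which tags synapses and debris for removal. The lipid receptor Trem2 signals through the adaptor protein Tyrobp, and Fc receptors through Fcer1g. A second population, the macrophages of the meninges and vessel sheaths, is marked by Mrc1, Cd163 and Pf4. Neither cell type belongs to the astrocyte lineage, and ACSA-2 beads are meant to leave both behind. In bulk libraries, a change in the number of such cells and a change in RNA per cell cannot be told apart.

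The deposited counts cover whole gene bodies, introns included, so every gene receives some cover that need not come from its own transcript. To show how much, each gene's FPKM (counts scaled to gene span and to the library total) was divided by the FPKM of 1479 olfactory, vomeronasal and trace-amine receptor genes, which are silent in most tissues. This ratio is called times background below. Over the 39 libraries the total count ran from 941450 to 37339379 with a median of 11264270, and the background itself, as a percent of the cover that counts spread evenly over all gene spans would give, ran from 13.4% to 80.8%. The 3 shallowest libraries, with 941450, 1222948 and 1603943 counts, were NAc control replicate 3, PFC susceptible replicate 6 and PFC resilient replicate 3. The first of these had 0 counts for 8 of the 32 genes, the second for 3 and the third for 2, and no other library had a 0. A count of 0 in NAc control replicate 3 still allows a level of up to 3.19 CPM, the usual measure of a gene's count relative to its library's total.

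Most of the 32 genes lay close to this background. Over all 39 libraries, 10 genes were at 2 times background or more, 28 were at or above 1 time and none reached 4 times. The median of the 32 genes was 1.84 times background, and 31.25% of them were at 2 times or more, while all 55141 named genes had a median of 1.53 with 30.5% at 2 times or more and the 21897 protein-coding genes had a median of 1.74 with 37.2%. The astrocyte marker Atp1b2, which carries the sorted epitope, stood at 106 times background and the glutamate transporter Slc1a3 at 26.7 times. A set of 16 genes of blood cells (8 of monocytes and neutrophils, 8 of lymphocytes), which resting brain tissue hardly expresses, ran from 1.09 times for the T cell gene Cd3e to 2.61 times for the neutrophil gene S100a9. Summed cover divides the summed counts of a list by its summed spans, so long genes weigh most. Among the 32 these include Cx3cr1 (168 kb, 1.37 times background) and Ptprc (113 kb, 1.23 times). The summed cover of the 32 genes exceeded that of the 16 blood cell genes in 9 of 39 libraries. For the 13 genes with a span under 10 kb it did so in 22 of 39.

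**Figure D1:**
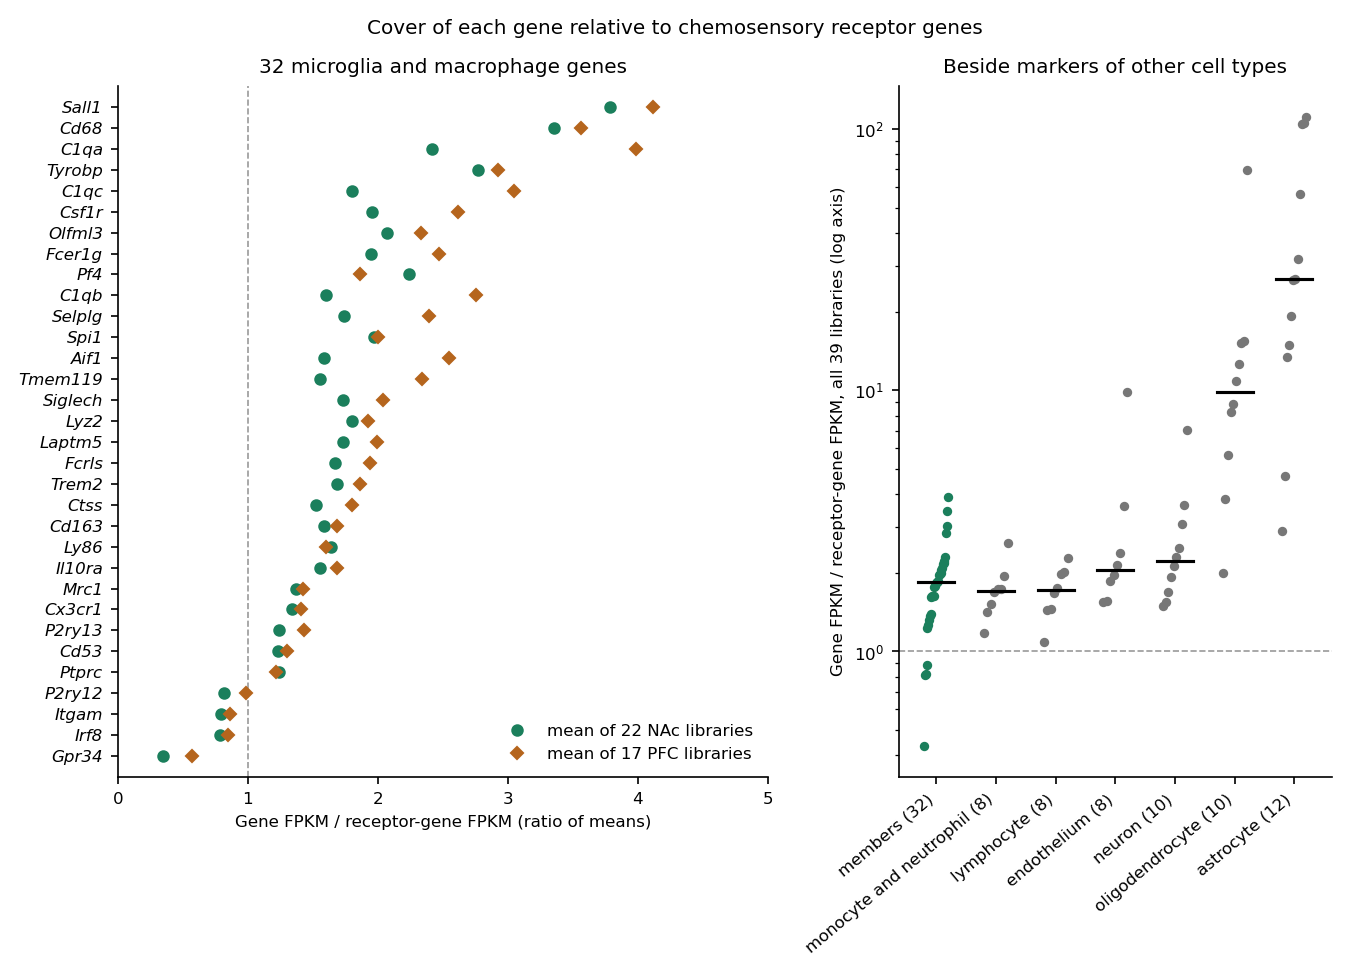
FPKM of each gene divided by the FPKM of 1479 receptor genes. Left, the 32 genes with the mean of 22 NAc libraries (circles) and 17 PFC libraries (diamonds) on a linear axis; right, the same ratio over all 39 libraries for the 32 genes and for markers of 6 other cell types on a log axis, with bars at the list medians. The 32 genes lie between 0.436 and 3.92 times background, a wider range than the 1.09 to 2.61 of the blood cell genes, and below most astrocyte genes.

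The C1q genes were among the highest of the 32. The 3 chains are encoded side by side on chromosome 4 (GENCODE M21, mm10, minus strand): C1qb at chr4:136880129-136886187, C1qc at chr4:136889804-136893065 and C1qa at chr4:136895917-136898803, none of them overlapping another gene. C1qa was at 3.03 times background, C1qc at 2.29 and C1qb at 2.06. C1qa lay above the summed blood cell genes in 35 of 39 libraries, C1qc in 26 and C1qb in 24. The 3 genes sit together, so the bases ahead of the start are shown for the 2 that the RefSeq promoter table holds (GRCm38.p6, minus strand). Each is cut before the annotated transcript. Whether these bases bear on the level of any gene was not tested. C1qb is read from chr4:136886201-136886450 and C1qc from chr4:136893066-136893164. Capitals mark ACTTCCT, the reverse complement of AGGAAGT, a core that ETS factors such as Spi1 (PU.1) bind. This motif was chosen after the sequences were seen.
C1qb: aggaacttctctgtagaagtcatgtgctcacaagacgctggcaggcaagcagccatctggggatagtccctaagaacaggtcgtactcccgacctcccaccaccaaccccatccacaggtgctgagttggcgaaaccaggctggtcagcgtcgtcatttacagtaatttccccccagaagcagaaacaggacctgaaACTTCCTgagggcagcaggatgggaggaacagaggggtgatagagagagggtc
C1qc: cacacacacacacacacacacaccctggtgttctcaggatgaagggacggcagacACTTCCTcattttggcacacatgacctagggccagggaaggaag
Counting both strands in the 250 bases ahead of the start, 10 of 28 windows of the 24 genes with an entry held the motif, which is 35.7%, against 7.69% of all 32851 windows in the table. The genes with it were C1qb, C1qc, Fcrls, Lyz2, Mrc1, P2ry12, Pf4, Ptprc and Sall1. The table held no window for C1qa, Csf1r, Gpr34, Il10ra, Selplg, Spi1, Tmem119 and Tyrobp. The windows of C1qb and C1qc, whose sequences led to the choice of motif, are counted in the 35.7%, so this share tests nothing. Those of Ptprc overlap each other. For C1qc, Fcrls, Lyz2 and a Ptprc window, the last bases ahead of the start lie inside a GENCODE M21 transcript of the gene. A match describes letters and not a bound site.

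The level of C1q differed from library to library more than that of most of the 32 genes. Its SD over all libraries was 43.7% of the mean for C1qa, 46.2% for C1qb and 61.1% for C1qc, against a median of 29.8%. Among other genes of low level this share ran from 28.5% for Lyz2 (mean 3.70 CPM) to 66.0% for Pf4 (0.802 CPM). The part of counting error in this spread was not tested. C1qa was at 3.05 ± 1.76 CPM in NAc control (SD, n = 7; trimmed-mean scaled), 2.96 ± 0.626 in susceptible (n = 8) and 2.85 ± 0.742 in resilient (n = 7) mice. In PFC it was at 4.34 ± 2.56 CPM in control (n = 6), 4.65 ± 0.903 in susceptible (n = 6) and 4.45 ± 1.62 in resilient (n = 5) mice. C1qb had means of 3.99 ± 1.91, 4.38 ± 0.673 and 3.82 ± 1.21 CPM in the NAc groups and 7.96 ± 3.38, 5.68 ± 1.54 and 5.41 ± 2.79 CPM in the PFC groups, in the same order. All the PFC means of both genes were above all the NAc means, and the libraries of the 2 regions overlapped. The NAc means of C1qc were 2.13 ± 1.10, 2.85 ± 0.743 and 2.38 ± 0.452 CPM, and its PFC means 5.00 ± 3.45, 4.00 ± 1.31 and 2.39 ± 1.92 CPM.

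Of the surface receptors by which microglia are usually recognised, Csf1r was the clearest. It was at 2.22 times background over all libraries and above the blood cell genes in 32 of 39. Its level was 27.0 ± 3.99 CPM in control, 27.5 ± 2.82 in susceptible and 23.5 ± 6.62 in resilient mice of NAc. In PFC it was 36.3 ± 11.5, 30.8 ± 3.39 and 26.9 ± 10.2 CPM, in the same order of conditions, which is kept below. Tmem119, a membrane protein of resident microglia, was at 1.86 times background, and Selplg, the ligand of P-selectin, at 2.00. The NAc means of Tmem119 were 4.06 ± 1.54, 4.93 ± 1.23 and 4.22 ± 1.53 CPM, and its PFC means 6.88 ± 2.40, 5.78 ± 2.39 and 5.70 ± 3.26 CPM. Both were above the blood cell genes in over 20 libraries, Tmem119 in 22 and Selplg in 27. The other genes of resident microglia were Olfml3 at 2.17 times background, Siglech at 1.85 and Fcrls at 1.78. The counted span of Olfml3, 15780 bases, is 6.05 times its RefSeq span of 2608 bases.

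Cx3cr1 and P2ry12, the usual microglial markers, both lay near background. Cx3cr1 had the highest mean level of the 32 genes, 92.7 CPM, from a counted span of 168264 bases (chr9:119901616-120069879, minus strand), which is 8.58 times the RefSeq span of the gene. Of that span, 57.4% overlaps 9 other genes. On the scale of library totals, background cover alone would give 69.0 CPM and Cx3cr1 had a mean of 94.4 CPM. Cx3cr1 was therefore at 1.37 times background, and above the blood cell genes in 5 of 39 libraries. Its NAc groups averaged 88.7 ± 13.5, 99.1 ± 11.0 and 96.3 ± 14.2 CPM, its PFC groups 99.8 ± 16.4, 87.7 ± 21.7 and 80.7 ± 17.5 CPM. P2ry12 (chr3:59216272-59262871, minus strand) lies wholly within Med12l on the opposite strand and was at 0.885 times background. Its NAc groups averaged 16.4 ± 5.18, 15.9 ± 1.16 and 16.4 ± 2.44 CPM, its PFC groups 17.6 ± 2.40, 17.7 ± 3.99 and 19.8 ± 5.29 CPM. P2ry13, in the same host gene, was at 1.31 times.

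The 4 genes under 1 time background were P2ry12, the integrin chain Itgam at 0.822, the transcription factor Irf8 at 0.812 and the lysophospholipid receptor Gpr34 at 0.436. Each of these overlaps another annotated gene, P2ry12 and Gpr34 on the opposite strand and Itgam and Irf8 on the same strand. The strand setting of the counting is not given in the sources used here, so reads of these genes and their partners cannot be told apart, and reads that fall on overlapping genes may have been left out of the count. Of the 32 genes, 11 overlap another gene and had a median of 1.31 times background, with 1 of them at 2 times or more. The 21 that overlap none had a median of 1.98, with 9 at 2 times or more and none under 1. Among the 11, the overlap covers 0.0769% of the span of Mrc1, 1.88% of Ctss, 1.97% of Il10ra, 2.97% of Csf1r and 5.20% of Ptprc. By length, the 9 genes of 30 kb or more had a median of 1.37 and the 13 under 10 kb a median of 2.06. The parts of overlap and of length in these medians were not tested.

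The Trem2 receptor and its adaptor Tyrobp lay at 1.76 and 2.83 times background, and the Fc receptor chain Fcer1g, a second adaptor, at 2.15. The Trem2 groups averaged 4.83 ± 2.66, 5.65 ± 1.06 and 6.04 ± 1.12 CPM in NAc, while those of PFC averaged 6.38 ± 0.899, 5.82 ± 2.06 and 3.71 ± 1.85 CPM. For Tyrobp the NAc means were 4.18 ± 1.78, 4.60 ± 1.47 and 4.56 ± 1.06 CPM, the PFC means 4.79 ± 1.18, 3.55 ± 2.21 and 4.01 ± 2.18 CPM. Among genes of the lysosome, the membrane protein Cd68 was at 3.44 times background, the protease Ctss at 1.63, lysozyme Lyz2 at 1.85 and Laptm5 at 1.84. Lyz2 had group means between 3.20 and 4.16 CPM. Aif1, which encodes the protein stained as Iba1, was at 1.96 times background. The leukocyte surface genes Ptprc (CD45) and Cd53 were at 1.23 and 1.26, the accessory protein Ly86 at 1.63 and the interleukin receptor Il10ra at 1.61.

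Transcription factors of the lineage differed widely. Sall1, which microglia express but other macrophages do not, had the highest ratio of the 32 genes at 3.92 times background and was above the blood cell genes in 39 of 39 libraries. Its highest levels, 52.1 and 47.4 CPM, were in PFC susceptible replicate 1 and PFC resilient replicate 2. There the summed cover of the astrocyte genes was 249 times background in each, and Csf1r was at 25.3 and 10.5 CPM. Which cells the Sall1 reads came from was not tested. Spi1, the factor PU.1 on which the whole macrophage lineage depends, was at 1.98 times. Its NAc groups averaged 26.8 ± 8.65, 28.0 ± 5.52 and 28.0 ± 7.94 CPM and its PFC groups 26.6 ± 7.55, 25.3 ± 8.22 and 21.7 ± 9.11 CPM. Of the genes of border macrophages, Mrc1 was at 1.40 times background, Cd163 at 1.63 and the chemokine Pf4, with a mean of 0.802 CPM, at 2.09. Mrc1 had group means between 53.4 and 62.4 CPM, Cd163 between 15.1 and 20.1 CPM and Pf4 between 0.507 and 1.17 CPM.

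How far a gene stood above background depended on the library. In the 5 libraries with the lowest background, which ran from 13.4% to 35.6% and were 4 PFC libraries and NAc control replicate 3, C1qa averaged 8.37 times background, C1qc 5.52, Csf1r 4.22, C1qb 4.03 and Tmem119 3.86. In the 5 with the highest background, from 66.1% to 80.8%, the same genes averaged 1.82, 1.67, 1.48, 1.57 and 1.37 times. Ptprc averaged 1.31 and 1.28 times in these 2 sets, Cd163 1.52 and 1.58, and the blood cell genes Cd3g and S100a9 went from 2.87 to 1.96 and from 1.77 to 2.16. Sall1 averaged 11.2 times in the first set and 2.42 in the second, and the astrocyte gene Slc1a3 went from 123 to 9.48. The ratio has the background as its denominator, so these values describe the libraries and test nothing.

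**Figure D2:**
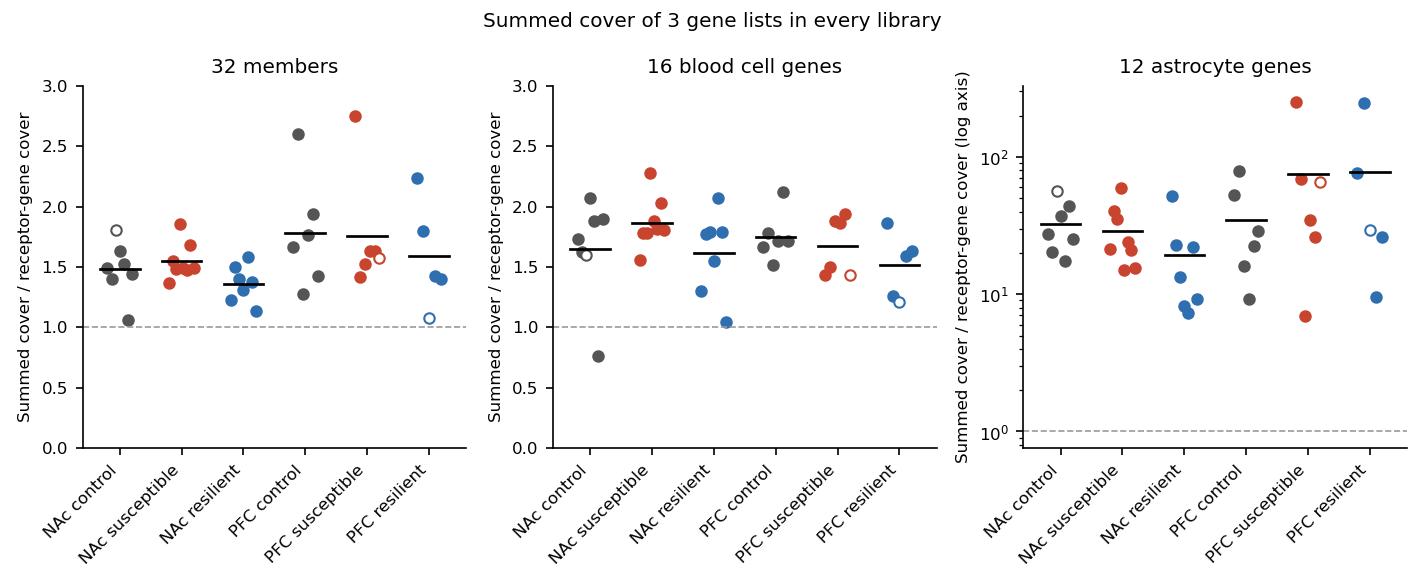
Summed cover of the 32 genes, of 16 blood cell genes and of 12 astrocyte genes, divided by the cover of the receptor genes, in every library of the 6 groups; bars are group means, open circles the 3 shallowest libraries, and the third axis is logarithmic. The 32 genes run from 1.06 to 2.75 times background and the blood cell genes from 0.76 to 2.28, while the astrocyte genes run from 6.90 to 249.

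In NAc, none of the 32 genes differed between stressed and control mice past the threshold of the test. The summed cover of the 32 genes was 1.48 ± 0.23 times background in control, 1.55 ± 0.15 in susceptible and 1.36 ± 0.15 in resilient mice. In susceptible against control mice, edgeR's quasi-likelihood test called 0 of 32 genes at an adjusted p under 0.05 and 0% of the 35943 genes tested. At an unadjusted p under 0.05 it found 1 of 32, against 3.02% of all genes. DESeq2, limma-voom and limma-trend also called 0 of the 32. The 32 genes had a median log2 fold change of 0.07 with 24 higher, against a median of -0.00 over all genes tested. The smallest p belonged to P2ry13, which had 1.41, 1.85 and 2.96 CPM as lowest, median and highest in susceptible mice, against 0, 1.07 and 2.74 in controls. The groups overlapped, and the log2 fold change was 0.57 ± 0.26 (SE; adjusted p = 1 by edgeR). Laptm5 followed at 0.32 ± 0.17 and Pf4 at 0.80 ± 0.42. Markers of other cells moved in the same libraries, none of them called. Of 10 oligodendrocyte genes 10 had lower estimates, with a median of -0.82 and 6 at an unadjusted p under 0.05. Of 12 astrocyte genes 11 had lower estimates, with a median of -0.24. The blood cell genes went the same way as the 32 genes. Of 8 lymphocyte genes 8 had higher estimates with a median of 0.23, and of 8 monocyte and neutrophil genes 5, with a median of 0.03. Their part in the values of the 32 genes was not tested.

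In resilient against control mice of NAc, edgeR called 0 of 32 genes and 0% of 35943, with 4 of 32 at an unadjusted p under 0.05 against 6.14% of all genes; DESeq2, limma-voom and limma-trend called 0 of the 32. The median log2 fold change was 0.06 with 20 higher. The count of 4 was 0 without NAc control replicate 3, NAc resilient replicate 3 or NAc resilient replicate 7, and at most 4 without any other library. The median was 0.03 without NAc control replicate 2 or without NAc resilient replicate 5, 0.10 without NAc control replicate 5, and -0.04 with 15 higher and 0 at an unadjusted p under 0.05 when the background percent was a covariate. The 3 genes with the smallest p were Cd163, Ptprc and Pf4. Cd163, a scavenger receptor for haemoglobin, ran from 15.8 to 21.6 CPM with a median of 21.3 in resilient mice and from 9.67 to 18.4 with a median of 16.5 in controls. That gave a log2 fold change of 0.27 ± 0.13 (adjusted p = 0.756 by edgeR). Ptprc was at 0.24 ± 0.11 and Pf4 at 0.90 ± 0.44, both with overlapping groups. Here too other markers moved, none of them called. Of 12 astrocyte genes 11 were lower with a median of -0.59, and of 10 oligodendrocyte genes 10 were lower with a median of -1.14. Of 8 lymphocyte genes 6 were higher with a median of 0.16, and of 8 monocyte and neutrophil genes 6 with a median of 0.12. The background percent was 64.3 ± 10.4 in resilient against 53.0 ± 9.21 in control mice. Their part in the values above was not tested.

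Between susceptible and resilient mice of NAc, no gene passed the threshold either. EdgeR called 0 of 32 genes and 0% of 35943, with 2 of 32 at an unadjusted p under 0.05 against 2.90% of all genes; DESeq2, limma-voom and limma-trend called 0 of the 32. The median was 0.02, and it was -0.02 without NAc resilient replicate 1 and -0.01 without NAc susceptible replicate 7, so no direction is given. Cd163 was at -0.29 ± 0.12, Laptm5 at 0.36 ± 0.17 and Lyz2 at -0.29 ± 0.17. Of the 14 microglial genes among the 32, 12 had a log2 fold change above 0, with a median of 0.13, beside 12 of 12 astrocyte genes with a median of 0.38. Of 8 border macrophage genes 2 were above 0, with a median of -0.09. Of 8 lymphocyte genes 6 were, with a median of 0.08, and of 8 monocyte and neutrophil genes 4, with a median of -0.02. These list values come from all libraries, with none left out.

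**Figure D3:**
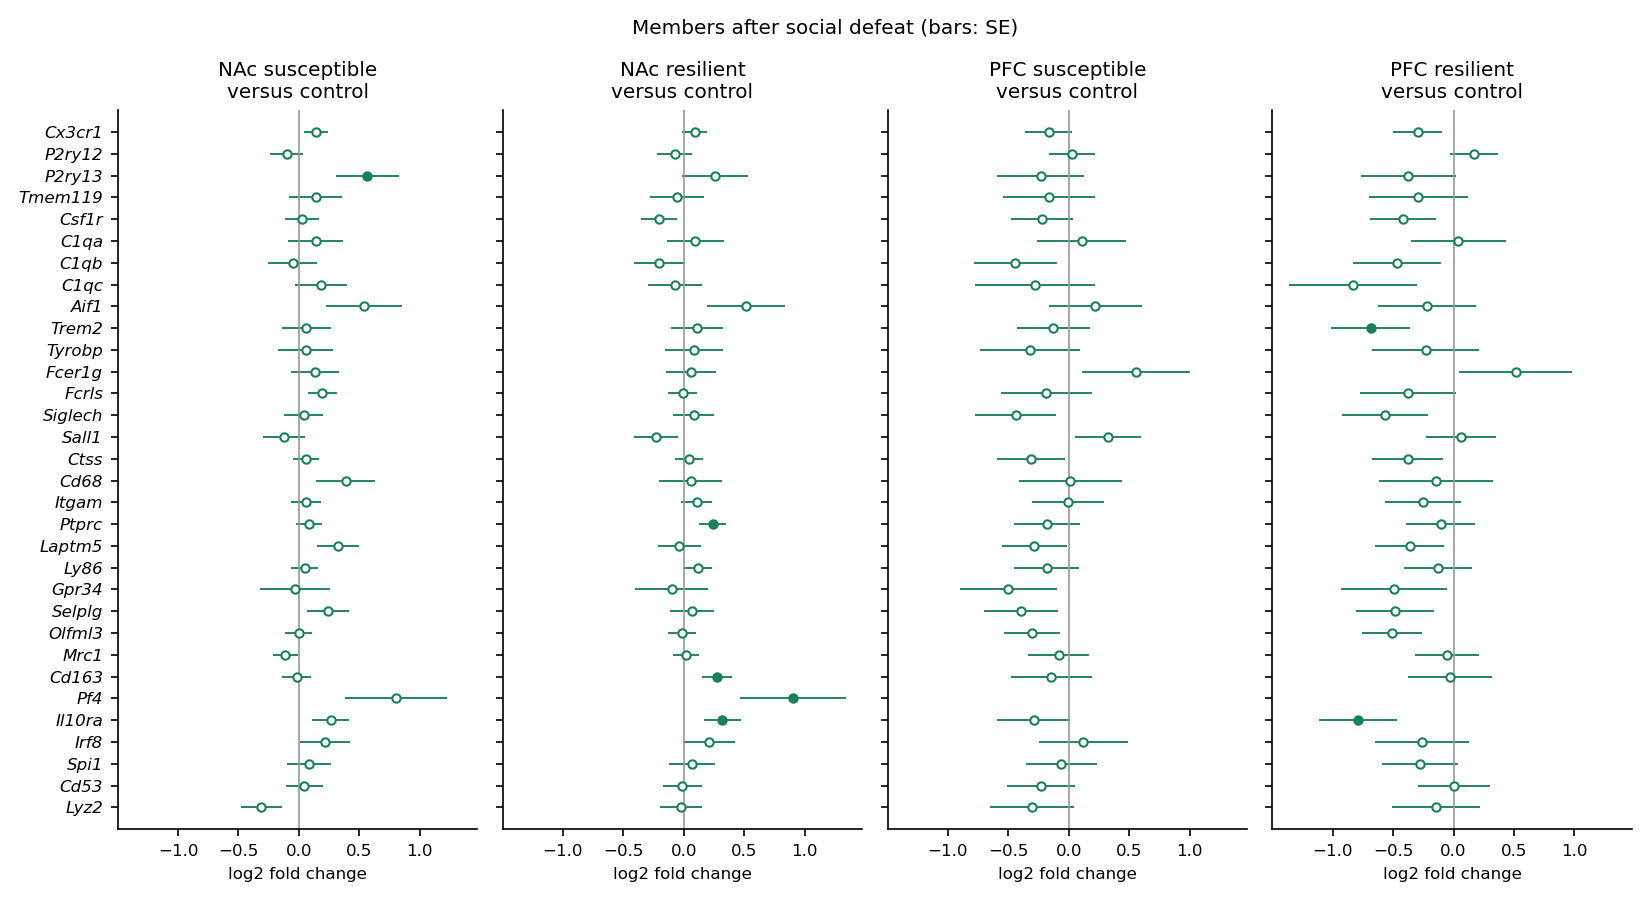
Log2 fold change of each gene in susceptible and resilient mice against controls of the same region, with bars of 1 SE; filled points have an unadjusted p under 0.05, and Pf4 was not tested in PFC. Points lie mostly right of 0 in NAc, where 24 and 20 of 32 are higher, and left of 0 in PFC, where 7 and 5 of 31 are. Most lymphocyte genes, not drawn, lie to the same side in each comparison.

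In PFC most of the genes had estimates below 0, again with none past the threshold. Pf4 fell under the count filter there, so 31 were tested. In susceptible against control mice, edgeR called 0 of 31 genes and 0% of 32167, with 0 of 31 at an unadjusted p under 0.05 against 0.482% of all genes; DESeq2, limma-voom and limma-trend called 0 of the 31. The median log2 fold change was -0.18 with 24 of 31 lower, against -0.01 over all genes. Without PFC susceptible replicate 1, the library with the lowest background of all 39, it was -0.06, and without PFC control replicate 4 it was -0.10. With libraries weighted by limma-voom it was -0.01. The 3 genes with the smallest p were Olfml3 at -0.31 ± 0.23, the lectin Siglech at -0.44 ± 0.34 and C1qb at -0.44 ± 0.34; Olfml3 turned to 0.019 under limma-voom.

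In resilient against control mice of PFC, edgeR called 0 of 31 genes and 0% of 32167, with 2 of 31 at an unadjusted p under 0.05 against 0.597% of all genes; DESeq2, limma-voom and limma-trend called 0 of the 31. The median log2 fold change was -0.28 with 26 lower, against -0.02 over all genes. It was -0.12 without PFC resilient replicate 2, the library in which 23 of the 32 genes were lowest of its group, -0.18 without PFC control replicate 5 and -0.10 under limma-voom. Il10ra, the receptor through which interleukin 10 restrains microglia, was at 7.30, 3.60, 5.24, 11.9 and 5.59 CPM in the 5 resilient libraries. In the 6 controls it ran from 6.43 to 16.3 CPM with a median of 13.2. Of the 5 resilient libraries 3 lay under the lowest control, and the log2 fold change was -0.79 ± 0.32 (adjusted p = 1 by edgeR). Trem2 was at 3.13, 1.94, 2.62, 6.69 and 4.19 CPM against 5.23 to 7.79 with a median of 6.36 in controls. Of its resilient libraries 4 lay under the lowest control, and the log2 fold change was -0.69 ± 0.33 (adjusted p = 1). Olfml3 followed at -0.51 ± 0.25. The 4 low Trem2 libraries, replicates 1, 2, 3 and 5, held 18, 7, 4 and 30 counts. Replicate 3 was a shallow library. They were at 1.62, 1.25, 0.689 and 1.21 times background, against 1.56 to 3.69 in controls. The 3 low Il10ra libraries, replicates 2, 3 and 5, held 13, 8 and 40 counts. They were at 1.17, 0.698 and 0.815 times background, against 1.14 to 4.27 in controls. On this scale replicate 1 for Trem2 and replicate 2 for Il10ra lay within the control range. The count of 2 ran from 0 to 5 with single libraries left out, 0 without PFC control replicate 4, PFC resilient replicate 2 or 5 and 5 without PFC resilient replicate 4. With the replicate number as a block it was 6 of 31, with a median of -0.34 and 0 called. In these comparisons 12 of 12 astrocyte genes were higher, with medians of 0.75 in susceptible and 0.77 in resilient mice. Of 7 lymphocyte genes tested, 5 were lower in susceptible and 7 in resilient mice, with medians of -0.11 and -0.23. Of 7 monocyte and neutrophil genes tested, 5 were lower in each, with medians of -0.01 and -0.21. The part of these shifts in the values of the 31 genes was not tested.

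Between susceptible and resilient mice of PFC, edgeR called 0 of 31 genes and 0% of 32167, with 0 of 31 at an unadjusted p under 0.05 against 0.572% of all genes; DESeq2, limma-voom and limma-trend called 0 of the 31. The median was 0.13 with 22 higher, and -0.04 with 11 higher without PFC resilient replicate 2. Trem2 was at 0.56 ± 0.33, Il10ra at 0.50 ± 0.33 and Aif1 at 0.44 ± 0.42. Aif1 rested on 1 shallow library: PFC susceptible replicate 6 read 13.3 CPM from 16 counts, and without the 3 shallowest libraries the difference was -0.033.

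Between the regions in control mice, the C1q genes had lower estimates in NAc, none of them past the threshold. C1qc was at 0, 2.26 and 3.24 CPM as lowest, median and highest of 7 NAc libraries and at 1.26, 4.87 and 10.2 CPM in 6 PFC libraries, a log2 difference of -1.03 ± 0.36. C1qb was at 0, 4.42 and 6.20 CPM against 3.63, 8.24 and 12.7 CPM, a log2 difference of -0.84 ± 0.28. C1qa was at 1.52, 2.28 and 6.45 CPM against 1.16, 4.44 and 7.41 CPM, a log2 difference of -0.70 ± 0.31. The 0 of C1qc, the 0 of C1qb and the 6.45 CPM of C1qa, from 6 counts, all came from NAc control replicate 3. In that library, the shallowest, a count of 0 still allows up to 3.19 CPM. In all 3 genes the PFC controls spread widely and the ranges overlapped. The adjusted p by edgeR was 0.349 for C1qb, 0.395 for C1qc and 0.793 for C1qa. EdgeR called 0 of 32 genes and 0.00262% of 38171 genes tested, with 9 of 32 at an unadjusted p under 0.05 against 5.04% of all genes; DESeq2, limma-voom and limma-trend called 0 of the 32, although DESeq2 called 81 genes in all. The count of 9 ran from 4 to 12 with single libraries left out: it was 4 without PFC control replicate 2, 4 or 5, 5 without NAc control replicate 1 and 6 without NAc control replicate 6. With library totals alone as the scale it was 4, with consecutive sample numbers as pairs 5 and by limma-trend 6. The other 6 of these 9 genes were Selplg at -0.72 ± 0.24, Gpr34 at -0.82 ± 0.33, Aif1 at -0.85 ± 0.36, Il10ra at -0.50 ± 0.22, Csf1r at -0.44 ± 0.20 and Tmem119 at -0.65 ± 0.30.

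**Figure D4:**
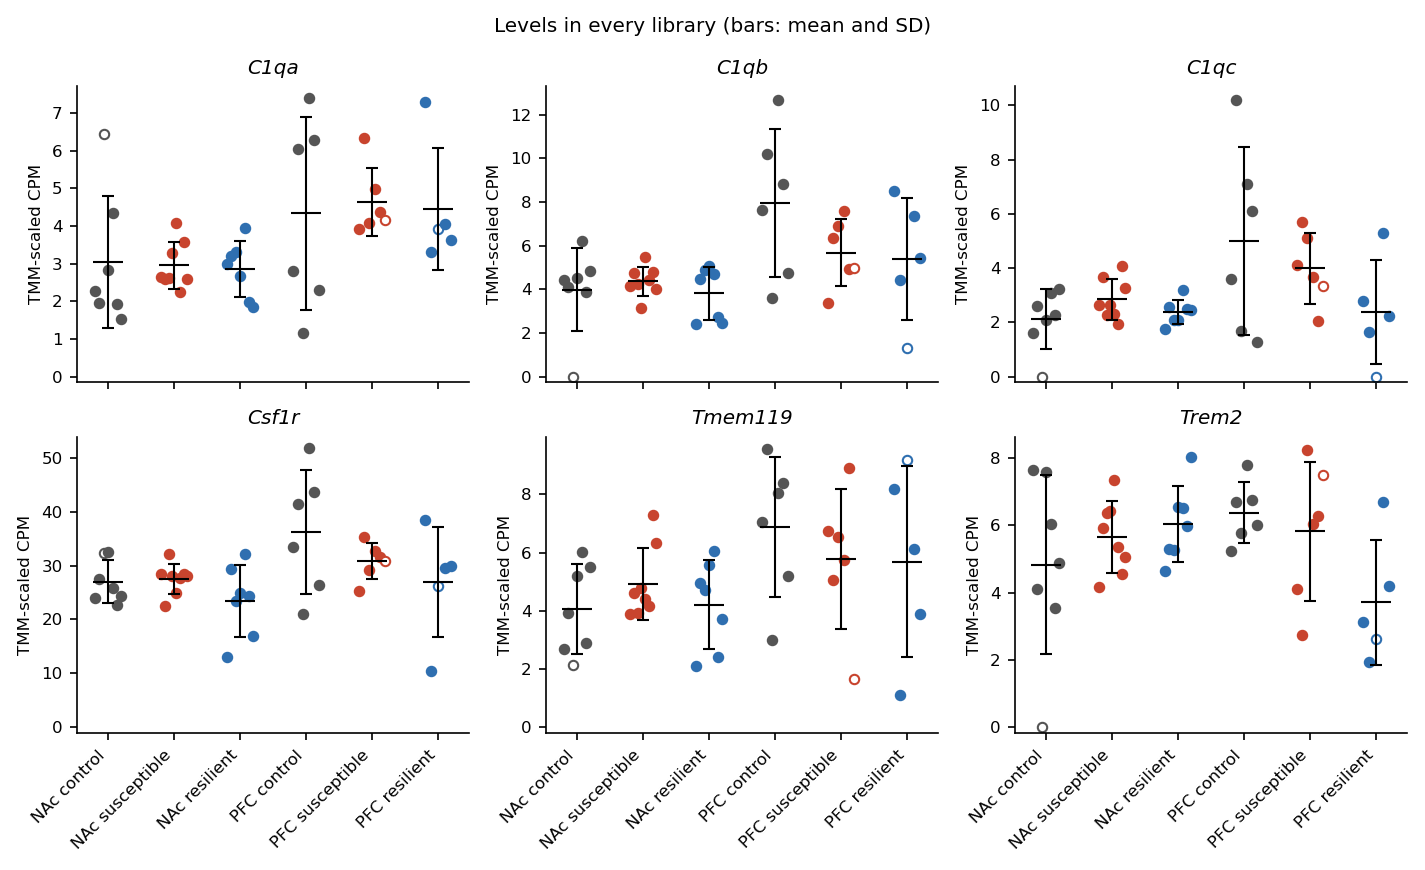
Trimmed-mean scaled CPM of C1qa, C1qb, C1qc, Csf1r, Tmem119 and Trem2 in every library of the 6 groups, with the mean and SD in black and the 3 shallowest libraries as open circles. For C1qc the PFC controls run from 1.26 to 10.2 CPM and overlap the NAc controls, which run from 0 to 3.24 CPM.

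Of the 32 genes 27 were lower in NAc than in PFC in controls, with a median of -0.28 against -0.02 over all genes and a range from -1.03 to 0.22. The median was between -0.34 and -0.21 with each library left out in turn. Without the 3 shallowest libraries it was -0.20, with 23 of 32 lower and 9 at an unadjusted p under 0.05. The 14 microglial genes had a median of -0.50 with 13 lower, while the 8 border macrophage genes, 3 of which are among the 32, had a median of -0.01 with 4 lower, and the monocyte and neutrophil list and the lymphocyte list each a median of 0.06 with 3 of 8 lower. The difference between these lists was not tested. Other cells differed too: 10 of 10 oligodendrocyte genes were higher in NAc with a median of 0.96, and 7 of 10 neuron genes were lower with a median of -0.83. Their part in the values of the 32 genes was not tested.

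In susceptible mice, edgeR called 0 of 32 genes and 0.00262% of 38171 between the regions, with 1 of 32 at an unadjusted p under 0.05 against 6.23% of all genes. In resilient mice it called 0 of 32 and 0% of 38171, with 1 of 32 at an unadjusted p under 0.05 against 14.6% of all genes. DESeq2, limma-voom and limma-trend called 0 of the 32 in both. The medians of 0.05 and 0.08 had no stable direction, since they were -0.05 without PFC susceptible replicate 1 and -0.04 without PFC resilient replicate 2. C1qa was again below 0, at -0.65 ± 0.30 in susceptible and -0.64 ± 0.33 in resilient mice, and its unadjusted p was 0.0336 and 0.0593. C1qb was at -0.41 ± 0.28 and -0.57 ± 0.30. Ly86 and Ptprc were at 0.30 ± 0.19 and 0.28 ± 0.19 in susceptible mice, and Il10ra and Trem2 at 0.63 ± 0.25 and 0.55 ± 0.29 in resilient mice. With library totals alone as the scale, the median over all genes itself moved to 0.14 in susceptible and 0.24 in resilient mice, and that of the 32 genes to 0.14 and 0.27.

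**Figure D5:**
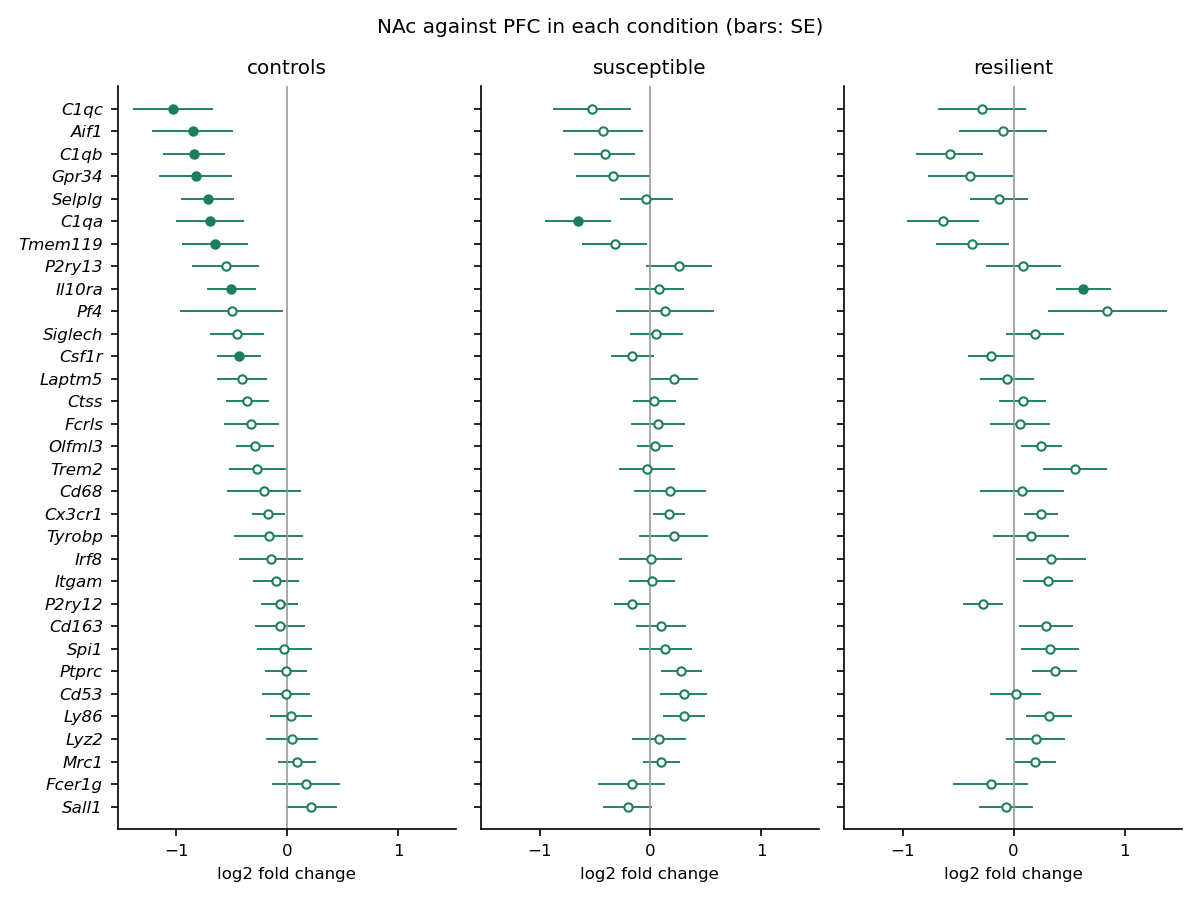
Log2 difference of each gene between NAc and PFC in control, susceptible and resilient mice, with bars of 1 SE and genes in the order of the control values; filled points have an unadjusted p under 0.05. In controls 27 of 32 points lie left of 0, among them C1qc at -1.03, and in the other conditions 12 of 32 do.

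The stress effects of the 2 regions were also set against each other within 1 fit of all 39 libraries. The susceptible effect was higher in NAc than in PFC for 29 of 32 genes, with a median difference of 0.33 against 0.05 over all genes, and 19 of 32 with a median of 0.10 under limma-voom. The resilient effect was higher in NAc for 29 of 32 genes too, with a median of 0.37 against 0.07, which was 0.15 with 23 higher without PFC resilient replicate 2 and 0.16 with 27 higher under limma-voom. Both differences use the same control libraries, so their likeness is no support for either. EdgeR called 0 of 32 genes and 0% of 38171 in each, with 0 and 3 of 32 at an unadjusted p under 0.05 against 1.38% and 3.45% of all genes; DESeq2, limma-voom and limma-trend called 0 of the 32. The count of 3 ran from 1 to 7 with single libraries left out, 7 without PFC resilient replicate 4. The 3 were Il10ra at 1.13 ± 0.33 (unadjusted p = 0.0015, adjusted p = 0.849 by edgeR), Olfml3 at 0.54 ± 0.25 and Trem2 at 0.82 ± 0.38. Il10ra was at 0.32 ± 0.16 in NAc and at -0.79 ± 0.32 in PFC in resilient against control mice. In the susceptible effect the smallest p belonged to Selplg at 0.68 ± 0.34, Laptm5 at 0.62 ± 0.31 and P2ry13 at 0.81 ± 0.42. Astrocyte genes went the other way in both, with 12 of 12 lower and medians of -0.96 and -1.41. Blood cell genes went the same way as the 32 genes. Of 8 lymphocyte genes 7 were higher in each, with medians of 0.25 and 0.44. Of 8 monocyte and neutrophil genes 5 and 7 were higher, with medians of 0.02 and 0.27.

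Other genes of the same pathways were read from 5 lists beside the 32 genes. Of 42 further microglial genes, 38 were at background or above and 11 at 2 times or more, with a median of 1.81. The highest was Cst3 (cystatin C, which astrocytes also make) at 97.2 times background. The 10 ligands through which other cells reach microglia had a median of 2.11, with the Cx3cr1 ligand Cx3cl1 at 6.17 times and the Csf1r ligands Csf1 and Il34 at 4.46 and 2.05. The 10 genes downstream of Trem2 and Tyrobp lay between 1.37 and 2.23 times, and of the 12 complement genes outside C1q the highest was C4b at 5.35. Of 18 genes of activated microglia, 5 were at 2 times or more, led by the apolipoprotein gene Apoe, also an astrocyte product, at 433 times and the receptor Axl at 5.01.

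No gene of these 5 lists was called by edgeR in any of the 11 comparisons. In control mice 35 of the 42 further microglial genes were lower in NAc than in PFC, with a median of -0.09 and 4 at an unadjusted p under 0.05; the smallest p belonged to the actin regulator Coro1a at -1.05 ± 0.35 and to Unc93b1, a chaperone of Toll-like receptors, at -0.58 ± 0.21. In the same comparison Cx3cl1 was at -1.81 ± 0.59 and C4b at 1.48 ± 0.34 (adjusted p = 0.349 and 0.220 by edgeR). In NAc, 32 of the 42 were higher in susceptible and 30 in resilient mice than in controls, with medians of 0.13 and 0.10. In PFC, 12 and 7 of the 42 were higher, with medians of -0.07 and -0.25. For the 18 activation genes the medians were 0.08 and 0.11 in NAc, and for the 16 of them tested in PFC they were -0.07 and -0.15.

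The SE of a single gene's log2 fold change had a median of 0.17 in NAc susceptible against control mice, with a range of 0.10 to 0.42, and 0.31 in PFC, with a range of 0.19 to 0.50. For Cx3cr1 in NAc susceptible against control mice, 2 SE on either side of the estimate ran from -0.06 to 0.34, and for C1qa from -0.32 to 0.60. Where a gene lies near background, most of its counts need not come from its own transcript, and a change in that transcript then gives a smaller change in the counts.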

How the data were processed

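Per the submitters' processing notes, the authors counted reads per gene with featureCounts on mm10, with aligner, versions and strand setting not given in the sources used here. As deposited, the counts are whole numbers for 55401 genes in 39 libraries. The deposited FPKM divide them by gene length and library total, and the implied length equalled the GENCODE M21 gene span for 54229 of 54229 genes (relative tolerance 1e-06). Identifiers matched that release for 55141 genes and 260 had no name there. No 2 libraries held identical counts.

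Counts were tested with edgeR 4.0.16 (R 4.3.3): trimmed-mean scaling, filterByExpr, robust quasi-likelihood fit, Benjamini-Hochberg adjustment over all genes tested, called under 0.05. Stress comparisons came from a fit of all 3 conditions per region, region comparisons and differences of stress effects from 1 fit of all 39 libraries. The SE of an edgeR log2 fold change was taken as its absolute value divided by the square root of the test's F statistic. The scripts were tested on simulated data. Alternatives were DESeq2 1.42.0, limma 3.58.1 (voom with library weights, and trend on log2(FPKM + 0.5)), other scalings and filters, background as covariate, blocks, and left-out libraries. Leaving out a library names it by its group and replicate number in the labels. The limit from a count of 0 covers counting error only, while SEs and p-values also hold the spread between libraries, which the labels number as separate mice; 16 pairs of consecutive numbers share a condition across regions and may be 1 mouse each.

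Same-numbered libraries were checked for shared deviations from their group means over genes above a log2 CPM of 1 and of 3. In PFC every pair correlated above 0.1 between control and resilient (5 of 5 at both levels) and between susceptible and resilient mice (5 of 5), and 5 of 6 and 6 of 6 pairs did between control and susceptible mice. The labels give no shared mouse, and the block was kept as an alternative.

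The 32 genes and all lists were chosen with earlier results of these data known. Group values are given for 14 of them (Cx3cr1, P2ry12, Tmem119, Csf1r, C1qa, C1qb, C1qc, Trem2, Tyrobp, Spi1, Mrc1, Cd163, Pf4, Lyz2), with the 3 of smallest unadjusted p in each comparison and, of the other lists, 2 genes; further genes were named after their values were seen.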

Additional observations from a re-analysis of the deposited data

Results flagged for a closer look

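Of 198 groups of 4 to 10 libraries, 22 held a highest or lowest value far from the rest by Dixon's test; chance gives about 1 in 20. In NAc control mice these were Cx3cr1 at 60.7 CPM and Gpr34 at 3.07 CPM in replicate 6, and C1qb at 0, Cd68 at 0 and Cd163 at 9.67 CPM in replicate 3, the shallowest library. In NAc susceptible mice P2ry12 was at 13.3 CPM in replicate 8, P2ry13 at 2.96 and Aif1 at 1.18 in replicate 2, Tyrobp at 7.89 in replicate 7, and Mrc1 at 43.6 and Cd53 at 10.9 in replicate 4. In NAc resilient mice Sall1 was at 40.8 CPM in replicate 1, Cd68 at 5.56 and Cd53 at 26.0 in replicate 7 and Lyz2 at 2.86 in replicate 3.

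In PFC control mice, replicate 2, which had the third lowest background of all libraries, had P2ry12 at 22.2, P2ry13 at 3.83 and Lyz2 at 1.59 CPM. In PFC susceptible mice Aif1 was at 13.3 CPM in replicate 6, the second shallowest library, and the summed cover of the 32 genes was 2.75 times background in replicate 1. In PFC resilient mice C1qa was at 7.30 CPM in replicate 1 and Olfml3 at 6.93 in replicate 2.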

How the results depend on the processing

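No member of the 32 was called in any of the 11 comparisons under any setting run, or with any single library left out. Signs turned for Olfml3 in PFC susceptible against control mice (0.019 under limma-voom) and for Aif1 in PFC susceptible against resilient mice (-0.056 under limma-voom, -0.033 without the 3 libraries with the lowest totals). The number of genes called over the whole table did move. For NAc against PFC in controls it was 1, and 7 with library totals alone, 81 by DESeq2, 17 by limma-voom, 297 with the background percent as covariate, 3 with only the groups compared and 3 with consecutive sample numbers as pairs. In susceptible mice it was 1, and 2 with library totals, 5 by DESeq2, 0 with only the groups compared, 0 with pairs and between 0 and 2 with each library left out (0 without NAc susceptible replicate 2, NAc susceptible replicate 5 or PFC susceptible replicate 1, and 2 without PFC susceptible replicate 3 or 5). In resilient mice it was 0, with 55 by DESeq2 and between 0 and 85 with each library left out, 85 without PFC resilient replicate 4. The susceptible effect between regions had 1 gene by limma-voom. In the count of genes above background, 28 of 32 were at 1 time in all, NAc and PFC libraries alike and 0, 0 and 1 at 4 times, against 10, 6 and 13 at 2 times. Scaling by library totals alone took the median over all genes from 0.06 to 0.24 on the log2 scale in NAc against PFC in resilient mice; the cause was not tested.

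With the replicate number as a block the median of the 32 genes was 0.11 in NAc susceptible and 0.08 in NAc resilient against control mice and -0.18 and -0.34 in PFC, and no call changed. In NAc same-numbered libraries did not all deviate together: correlations ran from -0.58 to 0.65 over genes above a log2 CPM of 3, and 2 of 7 control libraries at most correlated best with their own number in another group. In PFC the correlations ran from 0.18 to 0.93 at that level, while 1 of 5 or 2 of 6 control libraries correlated best with their own number.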
